A study of Arabidopsis thaliana with 48 samples.

Results

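The response of wild-type leaves to spaceflight was described from 8 leaf RNA-seq libraries of *Arabidopsis thaliana* Col-0, 4 from plants grown in spaceflight (FT) and 4 from ground control (GC) plants. They were taken by their sample labels from a series of 48 libraries, which also holds Col-0 roots and the leaves and roots of the epigenetic mutants *elp2-5* and *met1-7*. FT seedlings grew on solid nutrient plates in the Veggie plant growth unit of the International Space Station. GC seedlings grew in a Veggie unit inside an environment simulator chamber at Kennedy Space Center, which replayed the temperature, CO2 and light of the station after a delay. In both groups the seeds were kept dormant in cold and dark, the seedlings grew for 11 days under constant light, and they were fixed in RNAlater, stored frozen and dissected into leaves and roots. No transgene or mutation was present in either group. RNA of 3 plants was pooled from each plate, and the sources differ on whether a replicate was a single plate or a pair of plates combined. All FT plates shared a flight and a growth unit, and all GC plates shared a chamber, so the environment and the unit cannot be told apart. Whole leaves were sequenced, and fewer cells of a type and less RNA per cell cannot be told apart in such bulk samples.

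Leaves of a young seedling are mostly photosynthetic mesophyll, and they carry inducible programmes against stress. In the heat shock response, heat shock transcription factors bind short inverted repeats upstream of chaperone genes, and the chaperones HSP70, HSP90 and HSP101 with the small heat shock proteins hold or refold damaged proteins. In immunity, receptors at the cell surface and NBS-LRR receptors inside the cell start defence, salicylic acid and N-hydroxypipecolic acid carry it through the plant, and a large set of defence genes follows. Light-stress proteins, flavonoids and antioxidant enzymes protect the photosynthetic apparatus.

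Levels are in FPKM, fragments scaled to transcript length and library total. The number of reads behind a value is not in such a table, so depth is unknown and neither a detection limit nor a counting interval was computed. Of 33977 genes in the table, 19877 with at least 1 FPKM in at least 4 of the 24 leaf libraries were tested with limma on log2(FPKM + 0.5), and p-values were adjusted by Benjamini-Hochberg over all of them. Differentially expressed genes (DEGs) were those that passed an adjusted p of 0.05, changed 2-fold or more and were above 0 FPKM in some replicate of both groups. Values of single libraries are given in the order of replicates 1 to 4. Fold changes are log2, FT over GC, with their standard error (SE), and for weakly expressed genes the offset of 0.5 FPKM shrinks them.

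The leaf label matched the markers. *RBCS1A*, which encodes the small subunit of the carbon-fixing enzyme Rubisco, had 14370 to 16810 FPKM in FT leaves and 18400 to 20220 FPKM in GC leaves, against 135.5 to 280.7 FPKM in Col-0 roots. A pair of libraries stood apart. In GC replicate 4 the summed level of 23 seed maturation markers was 1852 FPKM, against 5.09 to 7.85 FPKM in FT leaves and 5.26 to 6.31 FPKM in the other GC leaves. It was the highest library for 21 of the 23 markers, and the other 2 were listed at 0 in all 8 libraries. The storage protein gene *SESA4* had 0, 0, 0.09 and 0 FPKM in FT leaves, against 0, 0, 0 and 396.9 FPKM in GC leaves, and *SESA1*, *SESA2* and the cruciferin gene *CRU3* had 339.0, 283.0 and 208.1 FPKM in GC replicate 4. The oleosin genes *OLEO4* and *OLEO3*, the 2 seed markers expressed enough to be tested, had 20.4 and 7.84 FPKM there and at most 5.31 FPKM elsewhere, and neither passed the test. In FT replicate 2 the defence and stress genes described below were mostly at their highest. Of the 30 raised DEGs, 25 had their highest value in FT replicate 2, and of the 19 lowered DEGs, 11 had their lowest value there. For genes whose values are given, each call is therefore reported with both libraries and, where it was lost without FT replicate 2 or without GC replicate 4, with the adjusted p of that fit.

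**Figure D1:**
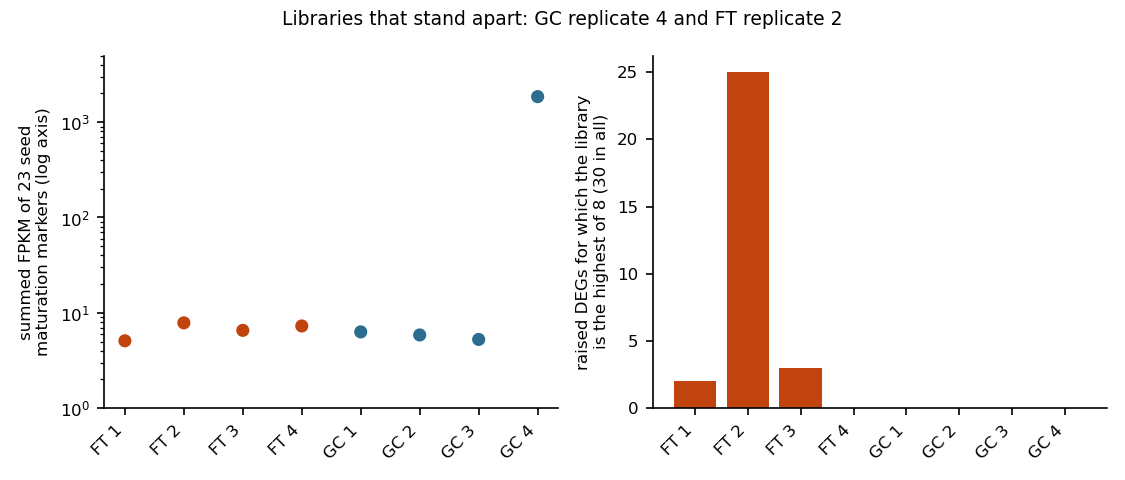
Left, summed FPKM of 23 seed maturation markers in each of the 8 Col-0 leaf libraries, on a log axis. Right, for how many of the 30 raised DEGs each library was the highest of the 8 (FT red, GC blue), with GC replicate 4 alone at 1852 FPKM on the left and FT replicate 2 highest for 25 genes on the right.

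Markers of roots also moved with the groups. The summed level of 13 root markers was 365.3 ± 46.9 FPKM in FT leaves and 245.9 ± 27.2 FPKM in GC leaves (SD, n = 4 each), 5510 to 6659 FPKM in roots, and none of the 13 was at 0 in all 8 leaf libraries. FT leaves had 308.7 to 409.1 FPKM and GC leaves 217.6 to 281.1 FPKM, without overlap (exact permutation test, two-sided p = 0.0286, the smallest that 4 against 4 allows). Most of the sum was *PYK10*, a β-glucosidase gene, with 280.3, 377.8, 370.7 and 319.3 FPKM in FT leaves, against 206.4, 222.5, 190.6 and 255.6 FPKM in GC leaves (log2 fold change 0.62, SE 0.15, limma adjusted p = 0.012, and 0.053 without FT replicate 2). *SCR*, *SHR* and *GL2*, the other 3 root markers tested, are also used in leaves and did not pass. The part of root tissue or of seed tissue in the results below was not tested.

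Spaceflight was accompanied by many small shifts and few large changes. Of the 19877 genes, 1732 (8.71%) were raised and 627 (3.15%) were lowered at an adjusted p under 0.05, and 2123 of these 2359 genes changed by less than 1.5-fold. The median log2 fold change was 0.30 for the raised genes and −0.29 for the lowered ones, against 0.045 for all genes tested. The 49 DEGs comprised 30 raised (0.151% of the genes tested) and 19 lowered (0.0956%). The groups did not overlap for 40 of the 49 DEGs, against 15.1% of all genes tested. The excess of raised genes depended on the scaling of the libraries: 1142 raised and 1344 lowered with median-ratio scaling, and 1016 raised and 933 lowered with quantile normalization. For the DEGs, quantile normalization gave 21 raised and 21 lowered.

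Without GC replicate 4, 2057 genes were raised (10.3%) and 596 lowered (3.00%), with 60 DEGs, and 42 of the 49 DEGs kept an adjusted p under 0.05. The 7 that lost it were *MIR5652*, *PUB54*, *SEN1*, *CRK36*, AT1G68620, AT5G24240 and AT2G44370. Without FT replicate 2, 810 genes were raised (4.08%) and 238 lowered (1.20%), with 19 DEGs, and 21 of the 49 kept an adjusted p under 0.05, 12 raised and 9 lowered. With both libraries left out 1113 genes were raised and 298 lowered, with 30 DEGs, and 16 of the 49 kept an adjusted p under 0.05. In every fit that left out a single library, 8 genes were DEGs: *FMO1*, *HSP90.1*, *HSP70*, AT5G37990, AT4G07190, AT5G44575, AT5G55570 and AT4G07090. Of these, *HSP90.1*, *HSP70*, AT5G37990, AT4G07190 and AT5G55570 also kept an adjusted p under 0.05 with both libraries left out (0.011, 0.020, 0.014, 0.0090 and 0.0068, limma).

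**Figure D2:**
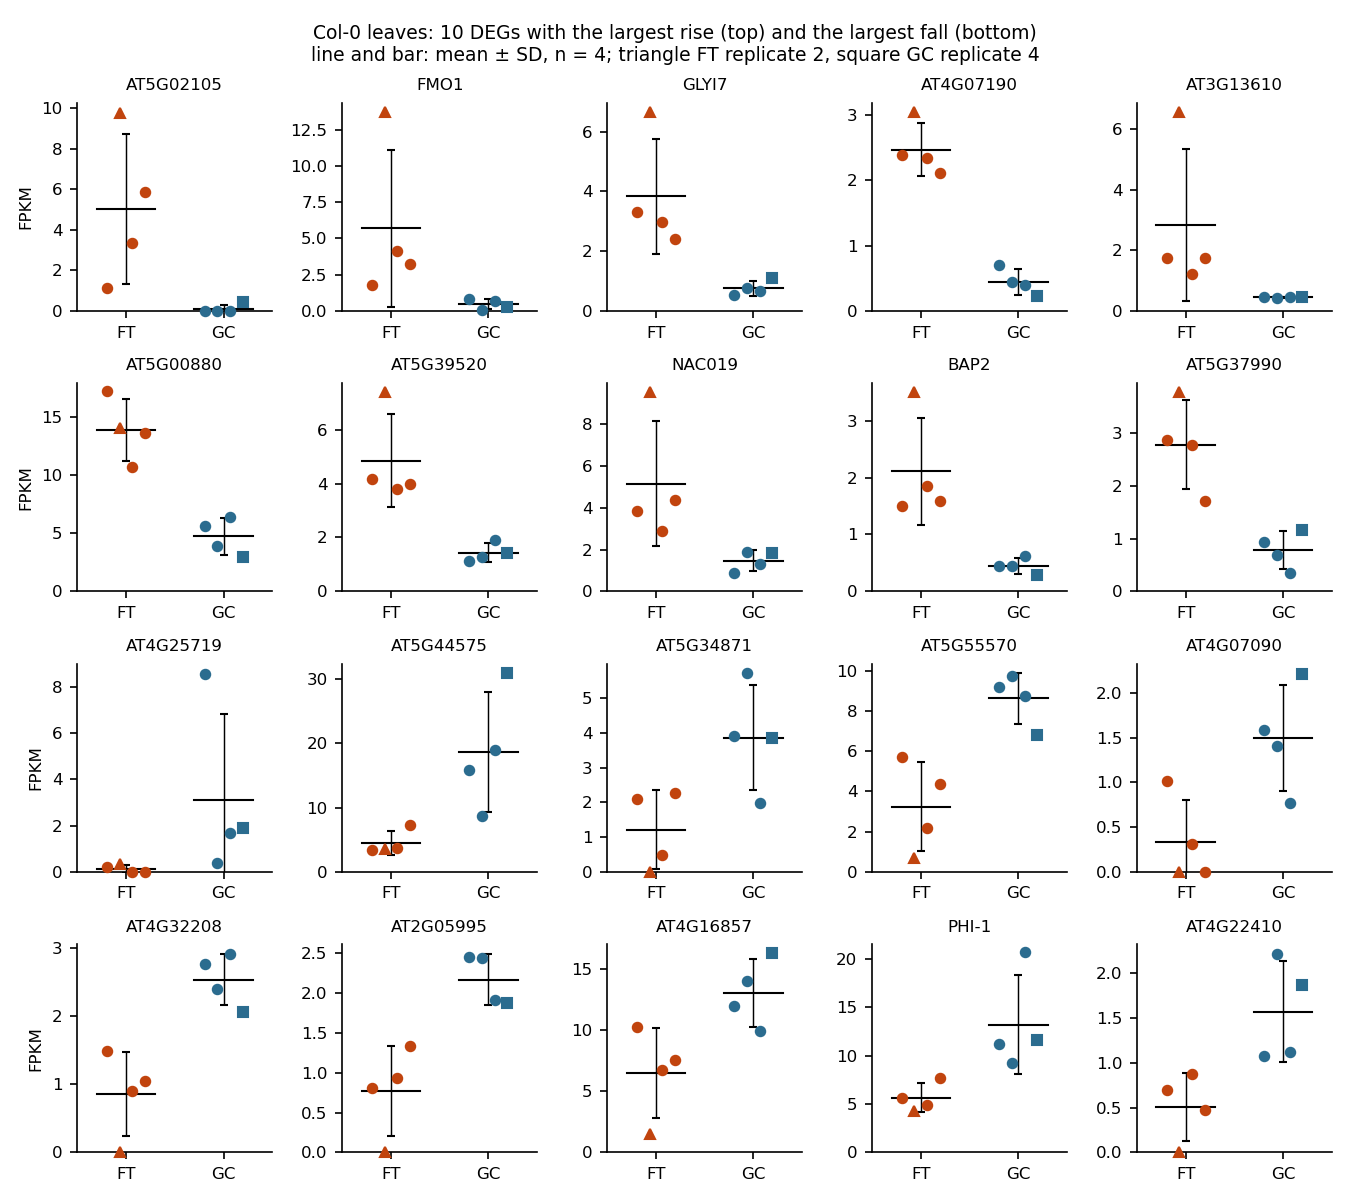
FPKM in each FT (red) and GC (blue) leaf library of 20 DEGs, the 10 that rose most and the 10 that fell most while keeping their call without GC replicate 4, each panel on its own axis from 0 with mean ± SD (n = 4, bars cut at 0). Triangles mark FT replicate 2, the highest library for 9 of the 10 raised genes, and squares mark GC replicate 4.

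Of the 32 genes of the heat shock list, 23 passed the filter on low values, and 12 of these (52.2%, against 8.71% of all genes tested) were raised and 0 lowered, with a median log2 fold change of 0.66 over the 23. Without GC replicate 4, 11 were raised, without FT replicate 2 again 11, and with both left out 9. With median-ratio scaling 11 were raised and with quantile normalization 10. The 9 genes that did not pass the filter were mainly small heat shock protein genes of the kind that heat induces most, among them *HSP21*, *HSP17.6II* and *HSP23.6-MITO*, and the factor *AT-HSFA7B*, at 0 in all 8 libraries.

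Chaperone genes had the largest changes among the called members of the list. *HSP90.1* (AT5G52640, chr5:21352557-21355147), the heat-inducible HSP90 of the cytosol, had 17.8, 32.4, 23.7 and 18.3 FPKM in FT leaves, against 8.55, 6.44, 12.1 and 8.05 FPKM in GC leaves (log2 fold change 1.33, SE 0.22, limma adjusted p = 0.0014). *HSP70* (AT3G12580, chr3:3991117-3993886) had 28.8, 39.5, 36.7 and 27.5 FPKM in FT leaves, against 12.7, 11.4, 20.1 and 15.6 FPKM in GC leaves (1.14, SE 0.22, adjusted p = 0.0032). AT5G51440 (chr5:20891163-20892416), which encodes a chaperone of the HSP20 family, had 4.57, 9.19, 7.29 and 4.12 FPKM in FT leaves, against 3.07, 1.65, 3.07 and 2.17 FPKM in GC leaves (1.15, SE 0.25, adjusted p = 0.0066). For each of these genes the lowest FT library was above the highest GC library, and FT replicate 2 was the highest. The adjusted p without FT replicate 2 was 0.0072 for *HSP90.1*, 0.017 for *HSP70* and 0.034 for AT5G51440.

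Regulators and co-chaperones of the response were also among the raised genes. *MBF1C* (AT3G24500, chr3:8918267-8919683), a transcriptional co-activator needed for thermotolerance, had 23.5, 31.4, 27.5 and 23.2 FPKM in FT leaves, against 14.2, 12.1, 13.5 and 11.6 FPKM in GC leaves. Its log2 fold change of 1.00 (SE 0.10) had an adjusted p of 4.2e-05, and of 0.00049 with both libraries left out. Other annotated genes overlap *MBF1C* on the opposite strand, and whether the counting used the strand is not stated. *HSF4* (AT4G36990), a heat shock factor of class B, which lacks the activation domain of class A, had 19.3, 37.2, 21.9 and 22.2 FPKM in FT leaves, against 12.5, 14.4, 13.2 and 8.35 FPKM in GC leaves (1.00, SE 0.22, adjusted p = 0.0063). *Hop3* (AT4G12400), whose protein links HSP70 to HSP90, had 10.9, 11.3, 11.8 and 9.64 FPKM in FT leaves, against 5.40, 5.85, 6.37 and 5.11 FPKM in GC leaves (0.88, SE 0.11, adjusted p = 0.00025). The 4 FT values of *Hop3* lay within 9.64 to 11.8 FPKM, and without FT replicate 2 the adjusted p was 0.0015. The co-chaperone genes AT5G48570 and AT2G20560, of the FKBP and DnaJ families, rose by 0.95 and 0.77, *HSP18.2* by 0.66, *HSP101*, the disaggregase, by 0.58, *BAG6* by 0.33 and *AT-HSFB2B* by 0.27. Without FT replicate 2 the adjusted p was 0.087 for *BAG6* and 0.18 for *AT-HSFB2B*, which also lost its call without GC replicate 4 (0.11).

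The 11 tested members that were not called included both class A factors. *HSFA2*, the heat-induced factor that prolongs the response, had 1.12, 2.17, 1.55 and 1.35 FPKM in FT leaves, against 0.81, 0.75, 1.56 and 0.55 FPKM in GC leaves, with overlap (log2 fold change 0.55, SE 0.28, adjusted p = 0.20). *HSFA7A* had 4.65 to 5.34 FPKM in FT leaves and 2.87 to 4.95 FPKM in GC leaves (0.42, adjusted p = 0.18), and without GC replicate 4, its highest GC library, the adjusted p was 0.077. The small heat shock protein gene *HSP17.4* had 0.36, 1.76, 0.68 and 0.59 FPKM in FT leaves, against 0.33, 0.20, 0.43 and 0.22 FPKM in GC leaves (0.67, adjusted p = 0.11). *Hsp70b* and AT5G37670 had log2 fold changes of −0.06 and −0.15, the only values below 0 in the list. Outside the list AT4G32208, annotated as an HSP70 family gene, was a lowered DEG (−1.32, limma adjusted p = 0.0048) and is described below.

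**Figure D3:**
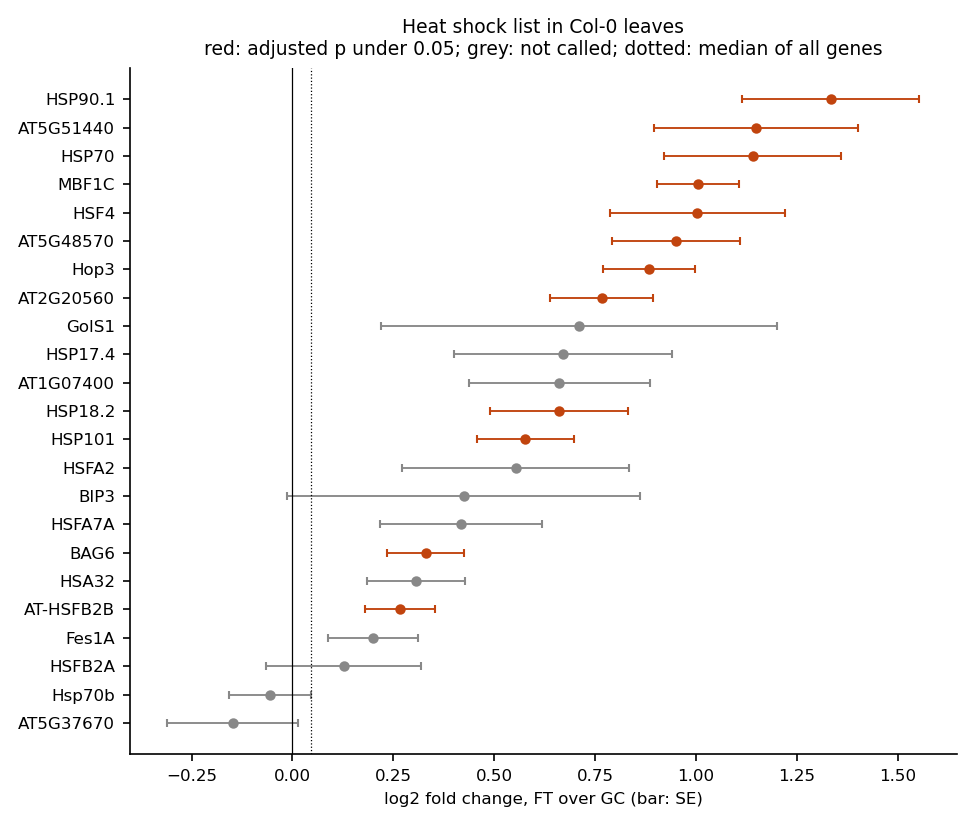
Log2 fold change (FT over GC) with its SE of the 23 tested genes of the heat shock list, ordered by size, the 12 raised genes in red and the 11 that were not called in grey. The dotted line marks the median of all genes tested, 0.045, and 21 of the 23 genes lie above 0.

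Heat shock factors bind arrays of the unit GAA and its inverted partner TTC, so the bases just before the annotated transcript starts were searched for GAANNTTC or TTCNNGAA. Each of these is its own reverse complement, so both strands are covered, and matches may overlap by sharing a unit. Such a match stood in the 250 bases before the start in 2 of the 12 raised heat shock genes (16.7%), AT5G51440 and *BAG6*, in 7 of the 11 that were not called (63.6%), and in 3136 of 19709 tested genes with an annotated start (15.9%). Overlapping matches that make an array of 3 units stood in 0 of the 12 raised genes, 4 of the 11 that were not called and 83 of the 19709 (0.421%). Among the DEGs, 7 of 30 raised genes and 0 of 19 lowered genes held a match. Another annotated gene reaches into the window of *HSP90.1*, *HSP101*, *HSP18.2*, AT5G51440, *MBF1C*, *BAG6*, *Hop3* and AT2G20560 among the raised genes. Among those not called this holds for AT1G07400, *HSFA2*, *Hsp70b* and *Fes1A*. What such neighbours do to the shares with a match was not tested. Annotated starts were not checked against measured ones. The 250 bases before the annotated start of *HSP90.1*, which hold no match, end in atggcggatgttcag, an ATG with codons after it. That window may therefore hold transcribed bases, and what lies further upstream was not searched. The 120 bases before the start are shown for *HSP70*, with the highest level among the raised genes and no match, for both raised genes with a match, and, chosen after their values were seen, for *HSP17.4* and *HSFA2*, which hold arrays and were not called. Matches are in capitals, and the sequences run 5′ to 3′ toward the transcript in the TAIR10.1 genome of RefSeq.
HSP70, chr3:3993887-3994006, minus strand: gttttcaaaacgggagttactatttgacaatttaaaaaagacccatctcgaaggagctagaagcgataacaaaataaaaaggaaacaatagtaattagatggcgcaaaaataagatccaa
AT5G51440, chr5:20891043-20891162, plus strand: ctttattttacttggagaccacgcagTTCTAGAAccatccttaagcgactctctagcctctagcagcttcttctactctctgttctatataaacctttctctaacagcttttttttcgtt
BAG6, chr2:18986013-18986132, plus strand: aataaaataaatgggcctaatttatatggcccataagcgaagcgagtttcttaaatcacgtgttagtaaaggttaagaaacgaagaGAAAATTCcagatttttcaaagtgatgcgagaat
HSP17.4, chr3:16984868-16984987, minus strand: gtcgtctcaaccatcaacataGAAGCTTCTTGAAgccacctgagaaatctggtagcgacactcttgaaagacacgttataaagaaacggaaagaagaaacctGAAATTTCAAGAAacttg
HSFA2, chr2:11135504-11135623, plus strand: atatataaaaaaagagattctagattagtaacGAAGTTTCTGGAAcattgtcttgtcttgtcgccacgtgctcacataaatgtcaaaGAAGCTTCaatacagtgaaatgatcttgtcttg
The bases before *HSP17.4* held 4 matches in 2 arrays and those before *HSFA2* held 3, in an array and a single match. A match describes the sequence only.

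In the immune gene lists described next few genes were called, at shares near or below that of all genes tested. Most of these calls were lost without FT replicate 2. Of 28 genes of salicylic acid synthesis and systemic immunity, 2 were raised and 0 lowered (7.14% raised, against 8.71% of all genes tested), with a median log2 fold change of 0.31. *FMO1* (AT1G19250, chr1:6650476-6653195), the monooxygenase that makes the mobile immune signal N-hydroxypipecolic acid, had 1.78, 13.7, 4.13 and 3.21 FPKM in FT leaves, against 0.84, 0.08, 0.71 and 0.26 FPKM in GC leaves. It had the largest log2 fold change of any protein-coding DEG, 2.40 (SE 0.54, limma adjusted p = 0.0075), with no overlap, and 1.88 without FT replicate 2 (adjusted p = 0.035) or 2.31 without GC replicate 4 (adjusted p = 0.016). With both left out the adjusted p was 0.055. *PBS3*, an enzyme of salicylic acid synthesis, had 6.67, 16.4, 6.11 and 7.94 FPKM in FT leaves, against 4.86, 4.53, 3.86 and 4.72 FPKM in GC leaves (0.87, SE 0.27, adjusted p = 0.040). It lost the call without FT replicate 2 (adjusted p = 0.17) and without GC replicate 4 (0.053).

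Outputs of salicylic acid and the defence gene *PAD3* varied widely within FT leaves, and none of those given here was called. *PR1* had 9.69, 168.4, 63.8 and 31.8 FPKM in FT leaves, against 38.9, 58.8, 73.7 and 179.2 FPKM in GC leaves (log2 fold change −0.78, adjusted p = 0.70). The highest FT library was FT replicate 2 and the highest GC library was GC replicate 4, and the groups overlapped. The camalexin synthesis gene *PAD3* had 11.1, 42.1, 21.9 and 18.4 FPKM in FT leaves, against 11.9, 9.14, 9.18 and 6.84 FPKM in GC leaves (1.15, adjusted p = 0.28). *PCC1* ran from 42.7 to 358.5 FPKM in FT leaves and from 125.4 to 292.9 FPKM in GC leaves (−0.56, adjusted p = 0.54).

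Early defence genes gave a similar picture. Of 22 genes of pattern-triggered immunity, 2 were raised (9.09%, against 8.71% of all genes tested) and 0 lowered, and without FT replicate 2 none was called. The transcription factor gene *WRKY45* had 4.37, 10.7, 6.56 and 4.55 FPKM in FT leaves, against 3.33, 3.55, 2.42 and 2.90 FPKM in GC leaves (log2 fold change 0.92, SE 0.25, adjusted p = 0.021). *Rap2.6L*, an ERF factor, had 2.38, 6.05, 2.02 and 2.21 FPKM in FT leaves, against 1.20, 0.96, 1.35 and 1.52 FPKM in GC leaves (0.95, SE 0.29, adjusted p = 0.040). Both genes were without overlap, and FT replicate 2 was the highest library of both, without which the adjusted p was 0.095 for *WRKY45* and 0.17 for *Rap2.6L*. *WRKY45* was the single gene raised among 47 WRKY genes (2.13%, against 8.71%). Of 30 cysteine-rich receptor-like kinase genes 3 were raised (10%, against 8.71%), *CRK13* (1.11, adjusted p = 0.037), *CRK36* (1.06, 0.035) and *CRK22* (0.34, 0.038). Without FT replicate 2 their adjusted p-values were 0.15, 0.15 and 0.12, and *CRK36* had 0.070 without GC replicate 4. *BAP2*, whose protein restrains cell death, had 1.5, 3.50, 1.86 and 1.58 FPKM in FT leaves, against 0.45, 0.44, 0.63 and 0.28 FPKM in GC leaves (1.41, SE 0.34, adjusted p = 0.011, and 0.053 without FT replicate 2). Of 21 plant U-box ubiquitin ligase genes, *PUB54* (1.5, adjusted p = 0.030, 0.13 without FT replicate 2 and 0.065 without GC replicate 4) and *PUB14* (0.30, adjusted p = 0.0048, and 0.023 without FT replicate 2) were raised (9.52%, against 8.71%).

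Other raised DEGs with large changes had varied roles. *GLYI7*, of the glyoxalase I family that detoxifies methylglyoxal, had 3.30, 6.67, 2.99 and 2.40 FPKM in FT leaves, against 0.52, 0.77, 0.66 and 1.11 FPKM in GC leaves (log2 fold change 1.71, SE 0.50, adjusted p = 0.033). *NAC019*, a factor of drought and abscisic acid responses, had 3.84, 9.53, 2.87 and 4.35 FPKM in FT leaves, against 0.86, 1.88, 1.29 and 1.86 FPKM in GC leaves (1.43, SE 0.40, adjusted p = 0.024). Both lost the call without FT replicate 2, with adjusted p-values of 0.12 and 0.11, although their groups did not overlap. The methyltransferase gene AT5G37990 had 2.87, 3.77, 2.76 and 1.71 FPKM in FT leaves, against 0.94, 0.69, 0.34 and 1.17 FPKM in GC leaves (1.36, SE 0.27, adjusted p = 0.0041). AT3G13610, an oxygenase gene of the 2OG-Fe(II) family, had 1.76, 6.56, 1.23 and 1.75 FPKM in FT leaves, against 0.46, 0.43, 0.46 and 0.47 FPKM in GC leaves (1.56, SE 0.45, adjusted p = 0.028, and 0.13 without FT replicate 2). AT5G39520, of unknown function, rose by 1.43 (adjusted p = 0.024, and 0.095 without FT replicate 2). Besides these, *CYP710A1*, whose enzyme makes stigmasterol, had 1.97 to 4.87 FPKM in FT leaves and 0.62 to 0.91 FPKM in GC leaves (1.32, adjusted p = 0.015, and 0.072 without FT replicate 2). Several RNAs without a protein were raised, of which AT4G07190 (chr4:12420756-12421515) had 2.38, 3.05, 2.34 and 2.11 FPKM in FT leaves, against 0.70, 0.44, 0.40 and 0.23 FPKM in GC leaves (1.67, SE 0.26, adjusted p = 0.0011). AT5G00880 rose by 1.5 (adjusted p = 0.019, and 0.056 without FT replicate 2) and AT5G02105 by 2.95 (adjusted p = 0.041, and 0.14 without FT replicate 2). All 3 overlap a gene on the opposite strand.

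Genes of leaf senescence and sugar starvation were raised in 5 of 18 tested members (27.8%, against 8.71%) and lowered in 0. *CYP89A9*, a cytochrome P450 of chlorophyll breakdown, had 22.6, 35.5, 23 and 20.9 FPKM in FT leaves, against 11.8, 10.5, 11.0 and 13.0 FPKM in GC leaves (log2 fold change 1.08, SE 0.17, adjusted p = 0.0013). It held without FT replicate 2 (adjusted p = 0.0058) and without GC replicate 4 (0.0016). *SEN1*, a dark-induced gene, had 47.9, 68.2, 76.9 and 63.6 FPKM in FT leaves, against 34.2, 15.4, 42.8 and 27.1 FPKM in GC leaves (1.16, SE 0.37, adjusted p = 0.045). The 2 groups of *SEN1* did not overlap, and it lost the call without FT replicate 2 (adjusted p = 0.12) and without GC replicate 4 (0.070). *BCAT-2*, of branched-chain amino acid breakdown, rose by 0.77, *AKINBETA1*, a subunit of the energy sensor SnRK1, by 0.38 and *SAG20* by 0.37. Without FT replicate 2 their adjusted p-values were 0.14, 0.15 and 0.15, and without GC replicate 4 *BCAT-2* had 0.057 and *AKINBETA1* 0.076. Of the 5 genes, 2 were called without GC replicate 4 and 1 without FT replicate 2, with median-ratio scaling 2, and with quantile normalization 1. Among markers of chlorophyll loss, *NYE1* had 9.48 to 12.8 FPKM in FT leaves and 9.35 to 10.9 FPKM in GC leaves (0.02, adjusted p = 0.94).

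Lowered DEGs included genes of light stress and of the chloroplast. *ELIP2* (AT4G14690, chr4:8418242-8419325), an early light-induced protein that binds chlorophyll under light stress, had 13.8, 7.79, 7.16 and 8.99 FPKM in FT leaves, against 18.4, 21.9, 22.3 and 17.4 FPKM in GC leaves. Its log2 fold change was −1.08 (SE 0.23, adjusted p = 0.0062, and 0.029 without FT replicate 2). The related *ELIP1* had 6.71, 7.94, 4.45 and 6.01 FPKM in FT leaves, against 9.29, 13.6, 11.4 and 9.79 FPKM in GC leaves (−0.78, SE 0.17, adjusted p = 0.0070). *GPX7*, a glutathione peroxidase, had 4.5, 4.43, 3.18 and 3.74 FPKM in FT leaves, against 10.06, 7.58, 9.50 and 7.51 FPKM in GC leaves (−1.04, SE 0.17, adjusted p = 0.0012, and 0.0032 without FT replicate 2). No library of these 3 genes overlapped the other group. The catalase gene *CAT3* moved the other way, with 1946, 2196, 2638 and 2222 FPKM in FT leaves, against 1516, 1492, 1426 and 1928 FPKM in GC leaves (0.50, SE 0.11, adjusted p = 0.0055). *ProT3*, a proline transporter, had 1.60, 1.15, 2.02 and 2.30 FPKM in FT leaves, against 5.64, 4.21, 3.78 and 3.46 FPKM in GC leaves (−1.08, SE 0.17, adjusted p = 0.0010).

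Of 24 genes of photosystems, Rubisco and light, 0 were raised and 4 were lowered (16.7%, against 3.15% of all genes tested), namely *ELIP2*, *ELIP1*, *RBCS1B* and *RBCS1A*. The list as a whole did not fall, with 14 of the 24 above 0 and a median log2 fold change of 0.051, against 0.045 for all genes tested. With quantile normalization 2 were lowered. *RBCS1A* had 16740, 14370, 15110 and 16810 FPKM in FT leaves, against 20220, 20220, 19020 and 18400 FPKM in GC leaves (log2 fold change −0.31, SE 0.06, adjusted p = 0.0032). *RBCS1B* had 5818, 5438, 5409 and 6470 FPKM in FT leaves, against 8498, 8288, 7173 and 6516 FPKM in GC leaves (−0.39, SE 0.11, adjusted p = 0.029). The groups did not overlap, and *RBCS1B* lost the call without FT replicate 2 (adjusted p = 0.092). Quantile normalization gave *RBCS1A*, the gene of highest FPKM in each library, a difference of 0 by construction. The light-harvesting gene *CAB1* had 10400 to 13830 FPKM in FT leaves and 10830 to 11890 FPKM in GC leaves (0.05, adjusted p = 0.83).

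Of 73 tested genes of the chloroplast genome, 12 were lowered (16.4%, against 3.15%) and 0 raised, with a median log2 fold change of −0.28. ATCG00020 had 92.9, 102.4, 83.0 and 69.6 FPKM in FT leaves, against 130.6, 144.0, 112.2 and 146.6 FPKM in GC leaves (−0.62, SE 0.19, adjusted p = 0.036). ATCG00530 fell by 0.59 (adjusted p = 0.018), ATCG00650 by 0.52 (adjusted p = 0.038, and 0.15 without FT replicate 2) and ATCG00540 by 0.52 (adjusted p = 0.038). Without GC replicate 4 the adjusted p was 0.070 for ATCG00020 and 0.075 for ATCG00540. The summed level of the chloroplast genes was 26340, 21710, 21680 and 22430 FPKM in FT leaves, against 24830, 32450, 27410 and 28310 FPKM in GC leaves, with overlap through FT replicate 1. The libraries were made from poly(A) RNA, so these transcripts were captured only in part. The number lowered was 7 without GC replicate 4, 7 without FT replicate 2 and 0 when only the 8 Col-0 leaf libraries were fitted. Of 63 mitochondrial genes 1, ATMG00040, was raised (1.59%, against 8.71%), by 0.84 (adjusted p = 0.028, and 0.11 without FT replicate 2).

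Of 28 flavonoid genes, 2 were lowered (7.14%, against 3.15% of all genes tested) and 0 raised, with a median log2 fold change of −0.37. *4CL3*, which feeds coumaroyl-CoA to flavonoids, had 7.33, 9.43, 6.69 and 10.2 FPKM in FT leaves, against 20.6, 18.9, 12.7 and 9.57 FPKM in GC leaves (−0.79, SE 0.24, adjusted p = 0.039). *TT5*, chalcone isomerase, had 19.8, 19.0, 17.2 and 18.5 FPKM in FT leaves, against 24.1, 36.5, 24.6 and 24.5 FPKM in GC leaves (−0.53, SE 0.16, adjusted p = 0.041). Without FT replicate 2 the adjusted p was 0.070 for *4CL3* and 0.090 for *TT5*. For *4CL3* GC replicate 4 overlapped the FT leaves. It was likewise the lowest GC library for *TT4*, chalcone synthase, with 89.0, 129.9, 71.9 and 111.0 FPKM in FT leaves, against 201.2, 240.7, 143.9 and 96.2 FPKM in GC leaves (−0.71, adjusted p = 0.092, and 0.022 without GC replicate 4). Without GC replicate 4, 6 of the 28 were lowered, without FT replicate 2 it was 0, and with both left out 5.

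The remaining lists had few calls. Of 18 hypoxia genes 1 was raised (5.56%, against 8.71%), AT4G27450, with 35.2, 40.8, 46.4 and 41.2 FPKM in FT leaves, against 20, 21.2, 26.4 and 27.97 FPKM in GC leaves (log2 fold change 0.77, SE 0.21, adjusted p = 0.024, and 0.065 without FT replicate 2). The median log2 fold change of the 18 was 0.26, with 17 above 0. *ADH1*, the alcohol dehydrogenase of fermentation, had 9.54 to 14.8 FPKM in FT leaves and 9.82 to 10.8 FPKM in GC leaves (0.25, adjusted p = 0.38). Of 21 phosphate starvation genes 1 was lowered (4.76%, against 3.15%), the acid phosphatase gene *PAP10* (−0.24, adjusted p = 0.036, 0.11 without FT replicate 2 and 0.066 without GC replicate 4). The list leaned the other way, with 17 of the 21 above 0. Its median log2 fold change was 0.29, against 0.045 for all genes tested. In either direction, 7 of the 21 had an unadjusted limma p under 0.05, the lowered *PAP10* among them. The share of all genes at that threshold is not given here. Of 25 genes of abscisic acid, drought and cold, 2 were raised (8%, against 8.71%), *NAC019* and *NAC3* (0.85, adjusted p = 0.040, and 0.15 without FT replicate 2). They were also the 2 raised among 52 NAC genes (3.85%). Of 26 jasmonate genes 0 were called by limma, and 0 had an unadjusted p under 0.05. Their median log2 fold change was 0.19, with 24 above 0, and 0.054 without FT replicate 2. The defensin gene *PDF1.2* had 45.6, 171.9, 523.2 and 473.3 FPKM in FT leaves, against 97.4, 459.8, 144.7 and 96.3 FPKM in GC leaves (0.41, SE 0.83, adjusted p = 0.80). *LOX2*, a lipoxygenase of jasmonate synthesis, had 128.6 to 377.0 FPKM in FT leaves and 144.9 to 307.8 FPKM in GC leaves (0.36, adjusted p = 0.54).

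Of 18 clock genes 1 was lowered (5.56%, against 3.15%), AT1G26790, a Dof-type zinc finger gene, with 0.96, 0.97, 0.51 and 0.75 FPKM in FT leaves, against 2.21, 2.54, 2.2 and 0.87 FPKM in GC leaves (−0.87, SE 0.22, limma adjusted p = 0.012). Among 10 touch and *PHI-1*/EXL genes 2 were lowered (20%, against 3.15%) and 1 raised (10%, against 8.71%). *PHI-1* had 5.67, 4.32, 4.95 and 7.75 FPKM in FT leaves, against 11.2, 9.27, 20.7 and 11.6 FPKM in GC leaves (−1.11, SE 0.34, adjusted p = 0.036, and 0.12 without FT replicate 2). The calmodulin gene *CAM2* fell by 0.38 (adjusted p = 0.0085) and *EXL4* rose by 0.49 (adjusted p = 0.0498, and 0.18 without FT replicate 2). Genes of growth and cell walls were nearly all uncalled. Of 15 SAUR genes, which auxin induces and which promote cell expansion, *SAUR20* was raised (6.67%, against 8.71%), with 11.0, 11.3, 9.57 and 12.5 FPKM in FT leaves, against 5.30, 4.76, 6.33 and 5.97 FPKM in GC leaves (0.93, SE 0.27, adjusted p = 0.031, and 0.082 without FT replicate 2). Of 15 expansin genes 0 were called by limma and 1 had an unadjusted p under 0.05, *EXPA1* having 175.3 to 223.8 FPKM in FT leaves and 149.8 to 183.9 FPKM in GC leaves (0.28, adjusted p = 0.13) and *EXPA6* a log2 fold change of 0.00. Of 20 xyloglucan endotransglucosylase genes *XTH28* was lowered (5%, against 3.15%), with a log2 fold change of −0.24 (adjusted p = 0.032, 0.12 without FT replicate 2 and 0.074 without GC replicate 4). Of 33 glutathione transferase genes *GSTF3* was raised (0.68, adjusted p = 0.040, 0.15 without FT replicate 2 and 0.069 without GC replicate 4) and *GSTU27* lowered (−0.29, adjusted p = 0.019, and 0.089 without FT replicate 2), 3.03% in each direction. In the mitochondrial stress and redox list of 22 genes, *NDB2*, an alternative NADH dehydrogenase, and *CAT3* were raised (9.09%, against 8.71%) and *GPX7* was lowered (4.55%, against 3.15%). *NDB2* rose by 0.50 (adjusted p = 0.022, and 0.10 without FT replicate 2).

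**Figure D4:**
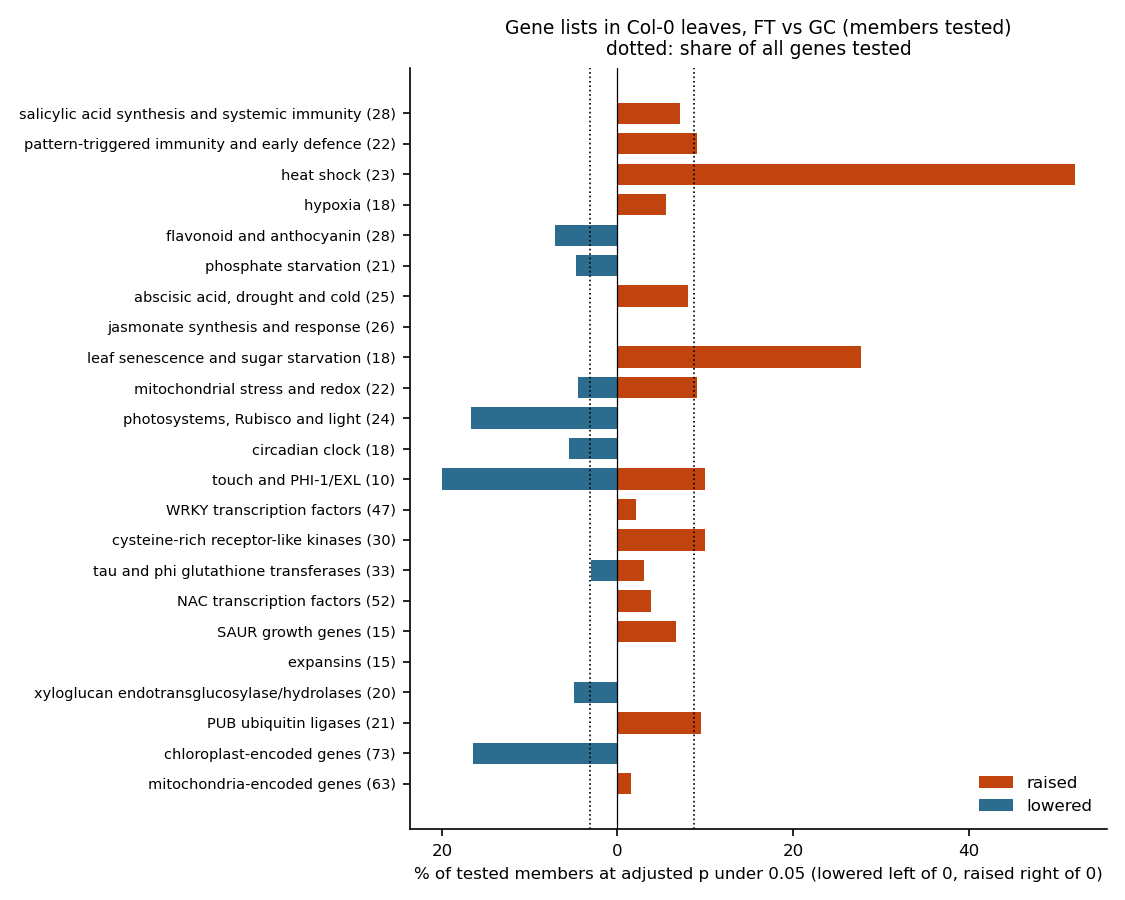
Share of the tested members of each gene list (number tested in brackets) that were raised (right, red) or lowered (left, blue) at an adjusted p under 0.05 in Col-0 leaves, FT vs GC, for lists with at least 10 tested members. Dotted lines mark the shares of all genes tested, 8.71% raised and 3.15% lowered, and the heat shock list reaches 52.2% raised.

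Of the 19 lowered DEGs, 7 were RNAs without a protein. AT5G44575 (chr5:17973775-17975120), an uncharacterized protein gene, had 3.37, 3.56, 3.76 and 7.22 FPKM in FT leaves, against 15.8, 8.74, 18.9 and 31.0 FPKM in GC leaves (log2 fold change −1.87, SE 0.43, limma adjusted p = 0.0090). AT5G55570, also uncharacterized, had 5.69, 0.71, 2.2 and 4.37 FPKM in FT leaves, against 9.19, 9.75, 8.74 and 6.82 FPKM in GC leaves (−1.52, SE 0.32, adjusted p = 0.0048). Neither gene showed overlap. AT4G16857, a TIR-NBS-LRR gene, had 10.2, 1.5, 6.70 and 7.55 FPKM in FT leaves, against 11.9, 14.0, 9.90 and 16.3 FPKM in GC leaves (−1.17, SE 0.32, adjusted p = 0.022). Its groups overlapped slightly, and an annotated gene lies on its opposite strand. AT4G32208 (−1.32, adjusted p = 0.0048), annotated as an HSP70 family gene, was not in the heat shock list. It and AT4G22410 (−1.09, adjusted p = 0.015) have near-identical copies elsewhere, AT5G09590 and AT4G22285, so their reads may be split between the copies. Without FT replicate 2 the adjusted p of AT4G22410 was 0.070. The non-coding AT4G25719 (−2.02, adjusted p = 0.030), AT5G34871 (−1.59, 0.022), AT4G07090 (−1.37, 0.0076) and AT2G05995 (−1.21, 0.016) were each listed at 0 in at least 1 FT library. The adjusted p without FT replicate 2 was 0.055 for AT4G25719, 0.10 for AT5G34871 and 0.064 for AT2G05995. AT4G32208, AT4G22410, AT5G34871, AT4G07090 and AT2G05995 were at 0 FPKM in FT replicate 2. Some of the lowered DEGs were also near 0 in mutant leaves of both environments. AT4G32208 averaged 0.025 and 0 FPKM in *elp2-5* FT and GC leaves, and 0 and 0.0225 FPKM in *met1-7*. The same means were 0.0875, 0.085, 0 and 0 FPKM for AT4G07090, and 0.1825, 0.0225, 1.07 and 0.9825 FPKM for AT2G05995. What sets these levels was not tested. Among all 49 DEGs, 18 overlap a gene on the opposite strand.

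Calls moved with the length of the transcript. Among the 10% of genes with the shortest transcripts, 180 to 814 bases, 2.18% were raised and 4.21% lowered, and among the 10% with the longest, 3084 to 16593 bases, 23.4% were raised and 0.66% lowered. The median length was 2194 bases for raised genes, 1295 bases for lowered genes and 1696 bases for all genes tested. The DEGs were shorter in both directions, with medians of 1228 bases for raised and 909 bases for lowered DEGs, the raised again being the longer. Per library, the rank correlation across genes of the deviation from the mean of all 8 libraries with length was 0.20, 0.18, 0.02 and −0.06 in FT leaves, against −0.10, −0.04, −0.16 and −0.08 in GC leaves (19710 genes, which share libraries and are not replicates). The values of FT replicates 1 and 2 were the highest. When FT replicate 2 was left out the raised share was 1.22% in the shortest 10% and 11.2% in the longest 10%. The heat shock members tested had a median length of 1766 bases, close to that of all genes. What the length pattern contributes to the calls was not tested.

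**Figure D5:**
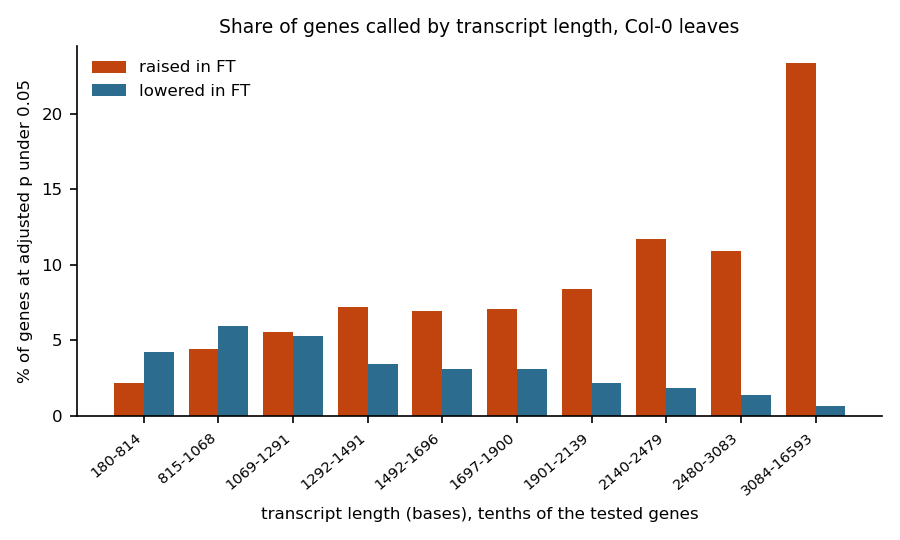
Percent of genes raised (red) and lowered (blue) at an adjusted p under 0.05 in 10 equal classes of the tested genes by transcript length in bases, Col-0 leaves, FT vs GC. The raised share is 2.18% in the shortest class and 23.4% in the longest, and the lowered share is 4.21% and 0.66% in the same classes.

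Whether the response was particular to Col-0 was tested as the difference of flight responses between genotypes in the same limma fit. Against *elp2-5*, a mutant of an Elongator subunit, 2 genes (0.0101% of those tested) had responses that differed at least 2-fold at an adjusted p under 0.05. *GASA1*, a gibberellin-regulated gene, averaged 670.3 ± 154.3 FPKM in Col-0 FT leaves and 509.5 ± 65.7 FPKM in Col-0 GC leaves (SD, n = 4 each), and 224.8 FPKM in *elp2-5* FT leaves and 464.4 FPKM in *elp2-5* GC leaves. The log2 responses differed by 1.42 (SE 0.23, adjusted p = 0.043). In Col-0 itself the log2 fold change of *GASA1* was 0.38 and was not called (limma adjusted p = 0.13). The glycine-rich protein gene AT2G05540 averaged 43.8 ± 22.9 FPKM in Col-0 FT leaves and 22.5 ± 5.25 FPKM in Col-0 GC leaves, and 3.38 FPKM in *elp2-5* FT leaves and 10.0 FPKM in *elp2-5* GC leaves, a difference of 2.29 (SE 0.38, adjusted p = 0.045). In Col-0 itself AT2G05540 rose by 0.85 (limma adjusted p = 0.044, 0.17 without FT replicate 2 and 0.082 without GC replicate 4). Without GC replicate 4 the count of genes that differed from *elp2-5* was 0. Against *met1-7*, a mutant of the CG methyltransferase, the count was 0 (0.00%), with a smallest adjusted p of 0.148 and 2095 genes at an unadjusted p under 0.05, against 1937 for *elp2-5*. Of the heat shock genes 0 differed in response between genotypes at an adjusted p under 0.05. The response of *HSP70* in Col-0 exceeded that in *elp2-5* by 0.02 (adjusted p = 0.99) and that in *met1-7* by −0.29 (0.79), and for *FMO1* the differences were 2.15 (0.36) and 2.24 (0.31). These p-values do not show that the genotypes responded alike.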

How the data were processed

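Poly(A) RNA of Col-0 leaves was sequenced from strand-specific libraries. The authors deposited FPKM per gene and library. Per the submitters' processing notes the tools were FastQC, Trimmomatic, STAR, RSEM and edgeR, and the reference was TAIR10; their versions and whether counting used the strand are not given in the sources used here. The deposited FPKM carry 2 decimals and no read counts, so no count model was fitted. A linear model with 6 group means over all 24 leaf libraries was fitted for 19877 genes to the log2 of FPKM plus 0.5, by limma (3.58.1, under R 4.3.3) with the trend and robust settings of its empirical Bayes step. It was tested on simulated data with known changes. Summaries and plots were made in Python 3.11.15 (pandas 2.3.3, scipy 1.17.1, numpy 2.4.6, matplotlib 3.10.9). Symbols, places and sequences came from the RefSeq annotation of TAIR10.1, in which 32548 of 33977 identifiers were found, and near-identical copies (at least 95% identity over at least 80% of the shorter transcript) were found with BLAST 2.17.0.

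Replicates are separate samples by their labels, and p-values measure the spread between them within a single flight. Replicate numbers do not pair FT with GC libraries by design. The 8 libraries and the gene lists were chosen with earlier results of these data known. Genes were named by rule: the 10 DEGs that rose most and the 10 that fell most while keeping an adjusted p under 0.05 and their direction without GC replicate 4; up to 4 called members with the largest change in each list, or the 2 of highest FPKM where none was called; the 4 seed markers highest in GC replicate 4; genes called between genotypes; and the 4 DEGs of largest change among those lost without GC replicate 4. Other genes named, the genes whose upstream bases are printed, and the groups of the closing section were chosen after their values were seen. Alternatives were other pseudocounts (0.1 and 1), no filter, median-ratio and quantile scaling, a replicate block, library weights, a fit of the 8 libraries alone and leaving out each library in turn.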

Additional observations from a re-analysis of the deposited data

Results flagged for a closer look

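Single libraries lay far from the other 3 of their group by Dixon's ratio of the gap to the range, at its 95% critical value. The summed level of the seed maturation markers in GC replicate 4 was 1852 FPKM, and the summed level of the chloroplast-encoded genes in FT replicate 1 was 26340 FPKM. Over 33 named DEGs, 66 groups of 4 were examined and 8 held such a library. The critical value gives about 1 in 20 for independent normal values, which FPKM of DEGs from shared libraries are not. The 8 therefore cannot be set against that rate. In FT replicate 2 these were AT3G13610 at 6.56 FPKM, AT5G39520 at 7.41 FPKM, *CYP89A9* at 35.47 FPKM and *CRK36* at 5.48 FPKM, each the highest of its group. In FT replicate 4 AT5G44575 had 7.22 FPKM, the highest of its group. In GC replicate 4 the non-coding AT5G02105 had 0.42 FPKM, with 0 in the other GC leaves, and *CRK13* had 1.58 FPKM. *MIR5652* was listed at 0 in GC replicate 3.

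The flight response differed between Col-0 and *elp2-5* leaves by limma for 2 genes, *GASA1* by 1.421 and AT2G05540 by 2.29 on the log2 scale.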

How the results depend on the processing

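The 49 DEGs became 87 with a pseudocount of 0.1 (64 raised, 23 lowered), 33 with 1 (23 raised, 10 lowered), 19 when only the 8 Col-0 leaf libraries were fitted (16 raised, 3 lowered), 43 with a replicate block and 19 to 100 when a library was left out, lowest without FT replicate 2 and highest without FT replicate 1. The 2359 genes at an adjusted p under 0.05 became 1570 with the replicate block, 246 with the 8 libraries alone and 1048 to 2653 without a library. Of them 73.4% were raised, against 45.9% with median-ratio scaling and 52.1% with quantile normalization. Median-ratio scaling moved the median log2 fold change of all genes to −0.00047, against 0.045. Without FT replicate 2 and GC replicate 4 together, an alternative chosen after seeing the data, there were 30 DEGs and 1411 called genes. Same-numbered FT and GC libraries had correlations of −0.0318, −0.0781, −0.0115 and −0.0117, so the samples share only a number.

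The 2 genes that differed from *elp2-5* became 1 with a pseudocount of 1, 0 without a filter, 0 with the replicate block, 1 with library weights, 1 with both libraries left out and 0 to 4 without a library. The count against *met1-7* was 0 in every fit run. The 39 list genes called became 13 with the 8 libraries alone and 20 to 44 without a library. The heat shock count of 12 became 7 with the 8 libraries alone and 10 to 13 without a library. The 12 chloroplast-encoded genes became 6 without a filter, 19 with median-ratio scaling, 6 with the replicate block, 0 with the 8 libraries alone, 5 with both libraries left out and 1 to 21 without a library, lowest without GC replicate 2. The FT minus GC difference ran from −614.7 to 0.8825 FPKM for the seed marker sum and from 104.8 to 138.3 FPKM for the root marker sum. *RBCS1A* had a change of 0 with quantile normalization, which gives the top gene of each library the same value. Of the 71 named genes, 47 lost their call with the 8 libraries alone and 40 without FT replicate 2. Both of these fits used fewer samples than the main fit, and the causes of the lost calls were not tested.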

Other observations

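Groups chosen after the values were seen also moved. Of 319 tested ribosomal protein genes, 89 (27.9%, against 3.15% of all genes tested) were lowered and 2 raised, with a median log2 fold change of −0.15. AT3G11120 had 250, 211.2, 203.3 and 181.3 FPKM in FT leaves, against 284.1, 315.5, 353.8 and 333.3 FPKM in GC leaves (−0.61, limma adjusted p = 0.00054), without overlap. The number lowered was 31 without FT replicate 2, 152 with median-ratio scaling and 65 with quantile normalization. Among all 19877 genes tested, 238, 1344 and 933 were lowered in the same fits. The ribosomal protein genes had a median transcript length of 1007 bases. In the length class of 815 to 1068 bases, 5.93% of all genes were lowered in the main fit. That share was 2.03% without FT replicate 2, 11.1% with median-ratio scaling and 6.08% with quantile normalization. The part of length in these counts was not tested.

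Of 82 tested NBS-LRR genes, which encode intracellular immune receptors, 34 (41.5%, against 8.71%) were raised and 1 lowered, with a median log2 fold change of 0.28. AT1G58848 had 23.67, 44.98, 31.56 and 29.2 FPKM in FT leaves, against 16.55, 16.68, 21.25 and 16.9 FPKM in GC leaves (0.81, limma adjusted p = 0.0011), and *RPP5* rose by 0.60 (adjusted p = 0.0053). With FT replicate 2 left out, 20 of the 82 were raised, against 4.08% of all genes tested and 11.2% in the class of longest transcripts. FT replicate 2 was the highest library for both genes. Their median length was 3996 bases, in the class of longest transcripts, the class with the highest raised share (23.4%), and the part of length in these counts was not tested.

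Of 20 SR splicing factor genes 5 were raised (25%, against 8.71%), led by *SR34b*, with 13.98, 18.14, 14.74 and 13.52 FPKM in FT leaves, against 7.65, 8.9, 8.36 and 10.17 FPKM in GC leaves (0.75, adjusted p = 0.00025). *SR45a* had 48.93 to 56.99 FPKM in FT leaves and 34.69 to 38.77 FPKM in GC leaves (0.53, adjusted p = 0.00025), and neither gene showed overlap. With FT replicate 2 left out, 4 of the 20 were raised (against 4.08% of all genes). Of 125 cytochrome P450 genes 22 (17.6%, against 8.71%) were raised and 0 lowered. With FT replicate 2 left out 7 of the 125 were raised and 1 lowered, against 4.08% raised and 1.20% lowered among all genes.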
